A study of Mus musculus with 8 samples.

Results

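The HoxD cluster and the chromatin on both of its sides were examined for accessibility in the mouse tailbud. The members are the 9 clustered genes Hoxd1, Hoxd3, Hoxd4, Hoxd8, Hoxd9, Hoxd10, Hoxd11, Hoxd12 and Hoxd13, seen here through the open regions counted around them. All counted regions in a 2 Mb window of chromosome 2 (mm9) were taken, and they numbered 17 of the 26620 counted in the series. A region was assigned by its midpoint: 9 lay in the 110 kb of the cluster, 4 in the landscape on its centromeric side and 4 in the landscape on its telomeric side. The assay was ATAC-seq, whose Tn5 transposase inserts adapters where DNA is open, on tailbuds of embryonic day 9.5. The 4 wild-type (WT, labelled WT/WT) and 4 Danforth's short tail (labelled Sd/Sd, homozygous) libraries shared the outbred CD-1 background. Sd is a mutation of the whole animal on this same chromosome 2, with no transgene or Cre. Per the design text, a library could combine the tailbuds of 2 mice where 1 gave too little input. The labels do not mark those libraries, and p-values reflect only how far the 8 libraries differ. In all, 2873918 to 4180434 counts were available per library over all regions, and each of the 17 regions held 22 to 327 counts per library. Levels are given as CPM, the counts of a region per 1000000 counts of its library over all counted regions. Values per library are listed in the order of replicates 1 to 4 within each genotype. The deposited regions carry no gene names and no mm9 annotation was used, so the tissue label was not checked against marker genes.

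As background, Hox genes encode homeodomain transcription factors that give positions along the body axis their identity, and within a cluster they are switched on in the order in which they lie. In the extending tailbud this order runs from Hoxd1, at the early and anterior end, to Hoxd13, at the late and posterior end. Hoxd1, Hoxd3 and Hoxd4 act mainly in anterior levels of the axis, Hoxd8 marks the middle of the cluster, and Hoxd9 to Hoxd13 belong to the posterior class, in which Hoxd13 is known for digits and external genitalia. Gene deserts lie on either side of HoxD: the centromeric landscape holds enhancers known from digits and genitals, and the telomeric landscape holds enhancers known from the proximal limb and the gut. In the RefSeq gene order the centromeric side carries Atf2, Atp5g3, Lnpk and Evx2, and the telomeric side carries Mtx2, Hnrnpa3 and Nfe2l2. Which of these genes lies at which counted region was not determined.

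The regions at both ends of the cluster lie at the known positions of Hoxd13 and Hoxd1, so the DNA just upstream of these genes is shown first, with that of Hoxd4 as a contrast from inside the cluster. Each sequence is the 250 bases before the gene's start, 5′ to 3′ on the gene's strand, from RefSeq (GRCm38.p6), and capitals mark CG dinucleotides.
Hoxd13: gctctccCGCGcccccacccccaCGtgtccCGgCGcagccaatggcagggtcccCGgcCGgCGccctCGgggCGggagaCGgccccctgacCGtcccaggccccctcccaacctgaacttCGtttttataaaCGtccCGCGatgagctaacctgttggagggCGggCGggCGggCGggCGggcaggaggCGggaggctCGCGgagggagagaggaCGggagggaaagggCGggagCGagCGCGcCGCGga
Hoxd1: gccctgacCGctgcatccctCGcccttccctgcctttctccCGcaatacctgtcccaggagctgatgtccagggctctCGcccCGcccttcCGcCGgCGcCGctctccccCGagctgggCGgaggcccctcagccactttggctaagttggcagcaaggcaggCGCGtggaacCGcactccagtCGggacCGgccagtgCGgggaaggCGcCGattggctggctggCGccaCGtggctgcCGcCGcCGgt
Hoxd4: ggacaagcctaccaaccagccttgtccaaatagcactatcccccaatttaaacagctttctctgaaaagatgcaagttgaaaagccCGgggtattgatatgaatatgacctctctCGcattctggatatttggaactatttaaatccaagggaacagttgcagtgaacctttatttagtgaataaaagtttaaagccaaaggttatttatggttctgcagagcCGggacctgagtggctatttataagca
Hoxd13 had 31 CG dinucleotides and a G+C content of 74.4%, and Hoxd1 had 24 and 71.6%. Hoxd4 had 3 and 40.4%. All 9 members matched the RefSeq table, with 10 promoters since Hoxd11 has 2 starts, and they ranged from 2 CG (1 start of Hoxd11) to 31, with a median of 12.5 against 6 over all 32851 promoters. In these 250 bases, on both strands, TATAAA was found in 2 of the 10 (Hoxd13 and Hoxd4) against 12.4% of all promoters. The letters TTTATG, a CDX-type motif, were found in 3 (1 start of Hoxd11, Hoxd3 and Hoxd4) against 10.8%, and TGATTNAT, a PBX-HOX-type motif, in 1 (the other start of Hoxd11) against 2.82%. A core of the CTCF motif was found in 0 against 1.17%. These matches describe letters and say nothing about binding.

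The cluster was dotted with open regions and both landscapes were nearly empty. Cluster regions were numbered 1 to 9 from the Hoxd13 end. Region 1 (chr2:74505913-74506587) covers the position of Hoxd13, and region 9 (chr2:74600766-74601685) covers that of Hoxd1. Between them lay region 2 (chr2:74511099-74512004), region 3 (chr2:74519964-74520877), region 4 (chr2:74529466-74529983), region 5 (chr2:74542720-74543755), region 6 (chr2:74549457-74550655), region 7 (chr2:74587474-74588124) and region 8 (chr2:74590881-74591402). Their density was 8.18 regions per 100 kb, against 0.444 in the centromeric and 0.404 in the telomeric landscape. Neighbours within the cluster lay a median of 8.27 kb apart, against 46.9 kb over all regions of the series. Regions 1 to 6 formed one run, and a gap of 36.8 kb separated them from regions 7 to 9 at the Hoxd1 end.

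In the centromeric landscape, regions 1 to 3 lay at 73.61, 73.73 and 73.75 Mb and region 4 at 74.42 Mb. Between centromeric regions 3 and 4 stretched 667 kb without a counted region, longer than 99.0% of all gaps between neighbouring regions in the series. The telomeric landscape had its region 1 at 74.66 Mb, region 2 at 74.98 Mb and regions 3 and 4 at 75.50 and 75.54 Mb. Here 2 gaps followed each other, of 311 kb and 520 kb, separated by telomeric region 2 alone (chr2:74975481-74976184). In none of these 3 gaps did any of the 8 libraries have a peak, at the authors' peak threshold. A desert without a called peak may still hold weaker openings, which these files do not show.

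**Figure D1:**
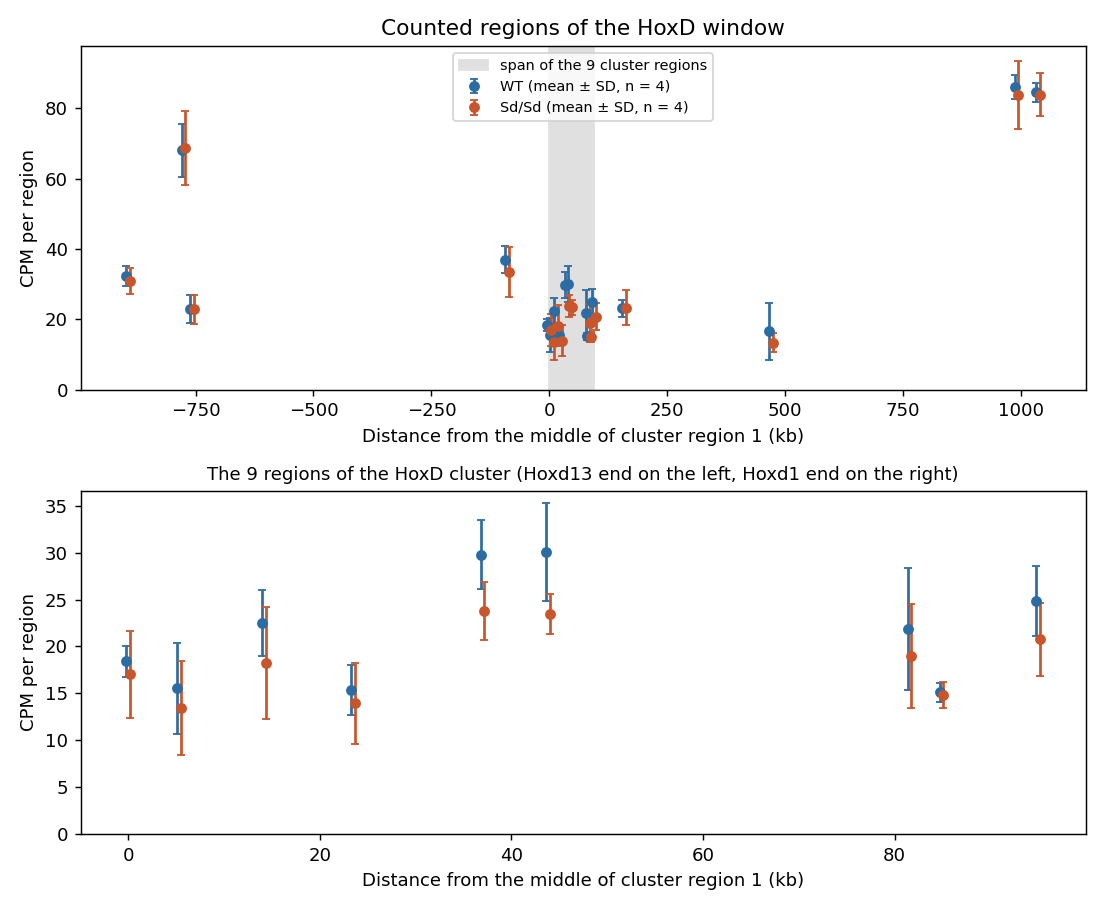
Mean CPM per counted region (y axis, linear) in WT and Sd/Sd tailbuds against the distance in kb from the middle of cluster region 1, for the whole window (upper panel) and the cluster (lower panel). Points are means of 4 libraries and bars are SDs. The highest regions, at 68.4 to 85.0 CPM over all libraries, lie far from the cluster, whose 9 regions average 14.5 to 26.8 CPM.

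Most cluster regions lay under the median level of the series. Over all 8 libraries the cluster regions averaged 14.5 CPM (region 2) to 26.8 CPM (regions 5 and 6). Their median was 20.4 CPM against 25.8 over all regions of the series. Regions 5 and 6 lay near the middle of the series, each above 52.0% of all regions. The landscapes reached higher: centromeric region 2 averaged 68.4 CPM, and telomeric regions 3 and 4 averaged 85.0 and 84.2 CPM. Whether these landscape regions are promoters of flanking genes or enhancers was not determined. Telomeric regions 3 and 4 exceeded 91.5% and 91.3% of all regions. Regions differ in width, so levels between regions are compared as CPM per kb of region. On that scale the cluster's median was 20.9 to 29.1 per library and that of all regions 32.1 to 33.5, so the cluster was lower in 8 of 8 libraries. The median of the 8 landscape regions was 28.0 to 35.8 CPM per kb, and the cluster stood at 0.748 ± 0.0681 of it (mean ± SD of the ratio within each library, n = 8, range 0.627 to 0.833). With summed CPM over summed length in place of medians the ratio was 0.658. The per-kb level also depends on how widely the authors' merged peaks were drawn.

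Ordered by mean CPM per kb, centromeric region 2 (44.4 ± 5.53, SD, n = 8), telomeric region 4 (44.0 ± 2.29) and telomeric region 3 (42.8 ± 3.43) came first. They were followed by centromeric region 1 at 32.9 ± 3.33 CPM per kb, lower than telomeric region 3 in 8 of 8 libraries. From there the order descended in small steps, and in 0 of the 16 adjacent pairs were the ranges over libraries fully apart. Cluster region 7 was the densest of the cluster, at 31.4 ± 8.86 CPM per kb, and cluster region 2, the next after that of Hoxd13, was the lowest of the window at 16.01 ± 5.17. Of all regions of the series, 0.631% were lower still. Across the cluster, the Hoxd1 side (regions 7 to 9) had 27.8 ± 3.99 CPM per kb of region and the Hoxd13 side (regions 1 to 6) had 23.0 ± 3.26 (n = 8), and the Hoxd1 side was higher in 8 of 8 libraries. At the ends themselves the means were close, with 26.3 ± 4.86 at region 1 and 24.8 ± 4.50 CPM per kb at region 9. Neither end was higher in all libraries. This is a description of levels and carries no test.

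The authors' peak calls, made in each library alone, also differed between cluster and landscapes. They come from the same 8 libraries as the counts and are not independent of them. Of the 9 cluster regions, 0 had a peak in all 8 libraries, and regions 5 and 9 came nearest with 7 of 8. Region 7 had a peak in 2 libraries, the fewest in the cluster. In the centromeric landscape 3 of 4 regions and in the telomeric landscape 2 of 4 had a peak in all 8. How many regions of the whole series had a peak in all 8 was not counted, so whether the cluster is unusual in this is not known. Telomeric region 2 had a peak in 2 libraries, as few as cluster region 7. The fold enrichment the authors deposited for each peak had a median of 3.01 over the 44 cluster peaks (2.66 to 3.76), 3.73 over the 31 centromeric peaks (2.69 to 5.36) and 3.796 over the 25 telomeric peaks (2.85 to 4.81). Over all 187862 peaks of the series it was 3.33. Each of the 17 counted regions had a peak in 2 to 8 libraries, and 7 further peaks in the window lay outside the counted regions, each seen in 1 library. Of these, 6 lay in the cluster and 5 of them in the gap between regions 6 and 7. The strongest of them, from 74559018 to 74560109, had the highest authors' fold enrichment of any cluster peak (3.76) and was called in WT replicate 1 only.

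**Figure D2:**
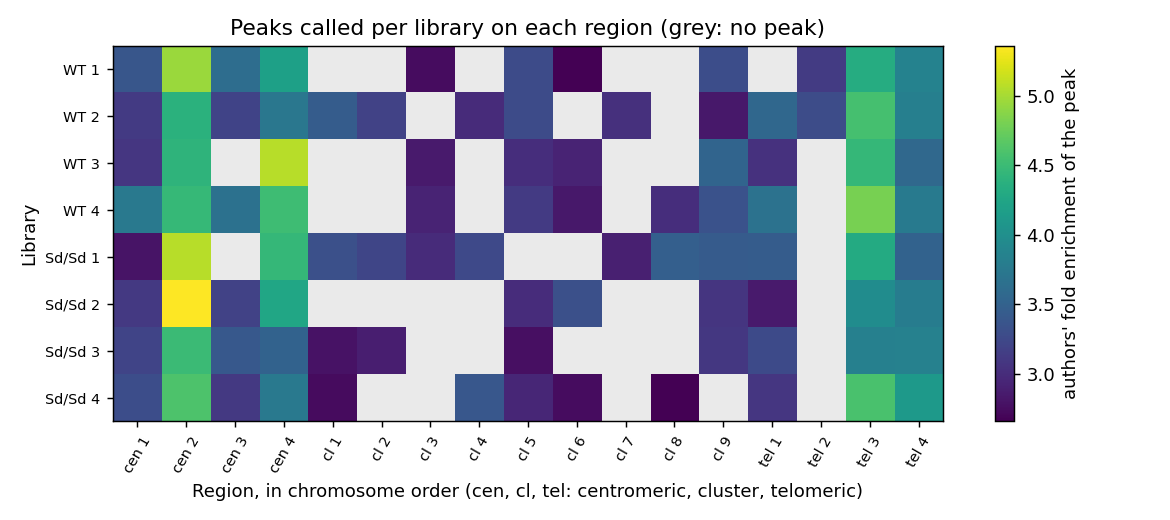
Peaks called in each library (rows) on each of the 17 counted regions in chromosome order (columns), coloured by the authors' fold enrichment, with grey for no peak. Cluster columns are patchy and mostly near 3, and 5 landscape columns are filled in all 8 libraries.

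Peaks in the window numbered 14, 14, 10 and 12 per WT library and 16, 10, 12 and 12 per Sd/Sd library. The mean was 12.5 in both genotypes (SD 1.91 in WT and 2.52 in Sd/Sd, n = 4 each), and the ranges overlapped. In all, 22596, 20316, 18682 and 24664 peaks were called in the WT libraries. The Sd/Sd libraries had 25809, 21306, 24102 and 30387. Peak numbers of the window and cluster were not scaled to these totals, so equal numbers do not show equal peak calling at HoxD. Within the cluster, region-by-library pairs with a peak numbered 19 of 36 in WT and 19 of 36 in Sd/Sd. The number of cluster peaks varied within a genotype: Sd/Sd replicate 1 had 9 cluster peaks and Sd/Sd replicate 2 had 3.

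The comparison of the genotypes asked whether accessibility at HoxD differs in Sd/Sd tailbuds. No region of the window passed: 0 of 17 had an adjusted p under 0.05 in edgeR's quasi-likelihood test (Benjamini-Hochberg over all regions), where 0.0188% of all regions did. DESeq2 and limma-voom also gave 0. At an unadjusted p under 0.05 there were 2 of 17, both in the cluster and both lower in Sd/Sd, against a background of 6.06% in either direction and 3.09% lower. For 17 of 17 regions the 95% interval of the fitted change lay within 2-fold in either direction, as for 26107 of all 26620 regions. It lay within 1.5-fold for 4 of 9 cluster regions, 4 of 4 centromeric and 3 of 4 telomeric ones, against 19641 of all 26620. In bulk tissue, fewer cells with an open site and less opening per cell cannot be told apart.

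**Figure D3:**
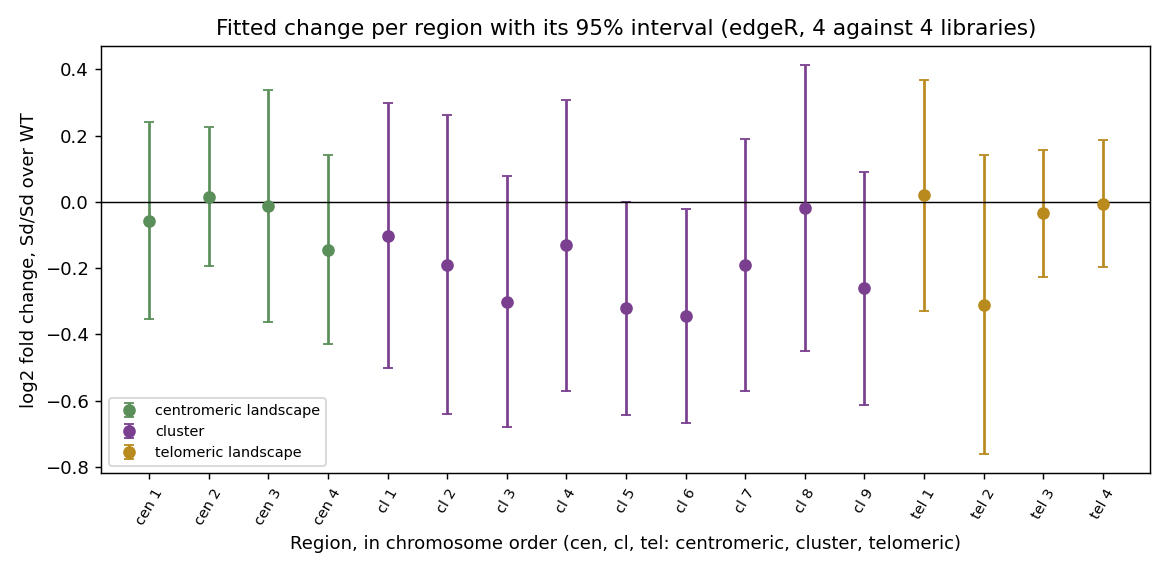
Fitted log2 fold change of Sd/Sd over WT (y axis) for the 17 regions in chromosome order, with 95% intervals from edgeR. All 9 cluster points lie under 0, between -0.35 and -0.02, and the intervals of 7 of them span 0.

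All 9 cluster regions had a fitted log2 fold change under 0 in Sd/Sd, where 49.9% of all regions did. Their median was -0.19, against 0.00057 over all regions. Neighbouring regions come from the same 8 libraries and are not independent. Without WT replicate 2 the median was -0.062, without WT replicate 4 it was -0.32 and without Sd/Sd replicate 1 it was -0.33. Of the 9 values, 7 were under 0 when Sd/Sd replicate 2 was left out, 8 when it was WT replicate 2 or 4, and 9 in the other 5 such fits. No cluster region passed the adjusted threshold, so these signs describe the fitted values only.

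Regions 5 and 6, in the middle of the cluster, were the 2 with an unadjusted p under 0.05. Region 5 stood at 34.8, 30.1, 28.2 and 26.1 CPM in the WT libraries and at 19.2, 25.2, 24.7 and 25.8 CPM in the Sd/Sd libraries. Every WT library was above every Sd/Sd library, by as little as 26.1 against 25.8. Of the 17 regions 1 was separated in this way, against 3.2% of all regions in either direction and 1.6% with Sd/Sd lower. The means of region 5 were 29.8 ± 3.72 and 23.7 ± 3.09 CPM (SD, n = 4 each), a fitted ratio of 0.800 (log2 fold change -0.32, SE 0.16, 95% interval -0.64 to -0.00015, edgeR adjusted p = 0.823). An unadjusted p under 0.05 was kept in 3 of 8 fits that left out 1 library, those without WT replicate 3, WT replicate 4 or Sd/Sd replicate 4. The log2 fold change in these fits ran from -0.38 to -0.23, the latter without Sd/Sd replicate 1, the lowest library.

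Region 6 stood at 28.4, 25.5, 37.6 and 28.7 CPM in WT and at 23.9, 25.6, 20.5 and 23.9 CPM in Sd/Sd. The groups overlapped by a narrow margin, since Sd/Sd replicate 2 reached WT replicate 2. The means were 30.0 ± 5.23 and 23.5 ± 2.12 CPM, a fitted ratio of 0.787 (log2 fold change -0.35, SE 0.16, 95% interval -0.67 to -0.02, edgeR adjusted p = 0.802). An unadjusted p under 0.05 was kept in 6 of 8 fits with 1 library left out, and lost without WT replicate 3, the library at 37.6 CPM (log2 fold change -0.23), or Sd/Sd replicate 3 (-0.29). Region 6 is the last of the run before the 36.8 kb gap.

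The ends of the cluster were compared next. At the position of Hoxd13, the most posterior gene of the cluster, region 1 stood at 16.8, 20.5, 18.8 and 17.6 CPM in WT and at 23.9, 14.2, 15.4 and 14.6 CPM in Sd/Sd. Sd/Sd replicate 1 stood higher than all other libraries, and the other 3 Sd/Sd libraries stood lower than all WT libraries. The log2 fold change was -0.10 (95% interval -0.50 to 0.30, edgeR adjusted p = 0.979), and it ran from -0.31 without Sd/Sd replicate 1 to -0.03 without Sd/Sd replicate 2. At the position of Hoxd1, the most anterior gene, region 9 had 29.6, 21.5, 26.1 and 22.3 CPM in WT and 23.6, 20.1, 23.8 and 15.5 CPM in Sd/Sd. The groups overlapped, with a log2 fold change of -0.26 (95% interval -0.61 to 0.09, edgeR adjusted p = 0.884).

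**Figure D4:**
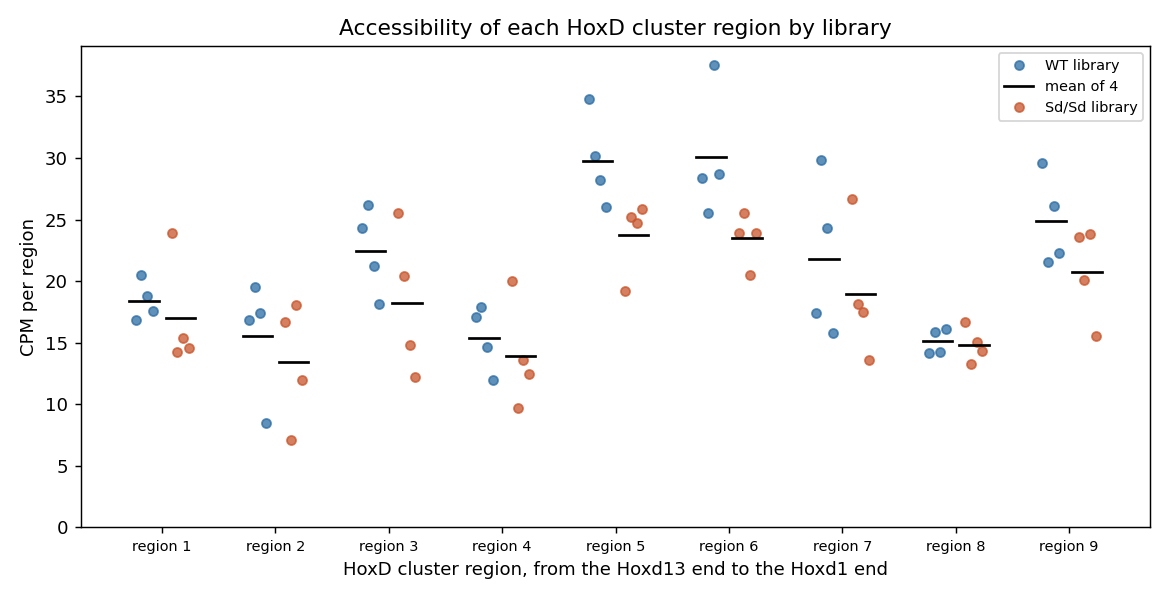
CPM (y axis, linear) of the 9 cluster regions in each WT and Sd/Sd library, with the mean of 4 libraries as a line. Region 5 is the 1 region where the groups do not overlap, and in regions 1, 3, 4, 7 and 8 Sd/Sd replicate 1, the leftmost red point, is the highest Sd/Sd value.

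Between Hoxd13 and the middle of the cluster, region 3 had 24.3, 26.2, 21.2 and 18.2 CPM in WT and 25.6, 20.4, 14.8 and 12.2 CPM in Sd/Sd, with a log2 fold change of -0.30 (95% interval -0.68 to 0.08, edgeR adjusted p = 0.874). Leaving out Sd/Sd replicate 1, whose level lay among the WT libraries, gave -0.52 (edgeR adjusted p = 0.542), the 1 such fit in which its unadjusted p was under 0.05. Leaving out Sd/Sd replicate 4 gave -0.14. Region 2 varied most between libraries in this stretch, with 16.8, 19.5, 17.4 and 8.49 CPM in WT and 16.7, 7.12, 18.1 and 12.0 CPM in Sd/Sd. WT replicate 4 and Sd/Sd replicate 2 were low together, across genotypes. The variance of region 2 within genotypes was 5.50 times that of counting error, a ratio higher than that of 96.06% of all regions. Region 4, the narrowest of the cluster at 518 bases, had 17.1, 17.9, 14.6 and 12.0 CPM in WT and 19.997, 9.71, 13.6 and 12.4 CPM in Sd/Sd, where the Sd/Sd libraries reached beyond WT on both sides. Regions 2, 4, 7 and 8 had log2 fold changes of -0.19, -0.13, -0.19 and -0.02, none of them at an unadjusted p under 0.05.

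Regions 7 and 8, on the Hoxd1 side and 2.76 kb apart, differed in how even they were. Region 7 had 17.4, 29.8, 24.4 and 15.8 CPM in WT and 26.7, 18.1, 17.5 and 13.6 CPM in Sd/Sd, a variance 5.79 times that of counting error (higher than 96.8% of regions). Region 8 had 14.2, 15.9, 14.3 and 16.1 CPM in WT and 16.7, 13.3, 15.1 and 14.4 CPM in Sd/Sd, a variance of 0.343 of counting error (higher than 0.913% of regions). The pair thus held both an uneven and an even region by the measure of the whole series. Region 7 had a peak in only 1 WT and 1 Sd/Sd library, so it may be among the merged peaks only through them. Its spread and its level per kb may depend on that, which was not tested. Over the 9 cluster regions the coefficient of variation had a median of 15.7% in WT and 27.0% in Sd/Sd, against 14.0% in each genotype over all regions. Cluster regions held fewer counts than the median region of the series (20.4 against 25.8 CPM), so their counting error is not alike. In regions 1, 3, 4, 7 and 8 Sd/Sd replicate 1 was the highest Sd/Sd library. The difference in spread between the genotypes was not tested.

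In the landscapes the fitted differences had medians nearer to 0 than in the cluster. That of telomeric region 2 was larger in size than those of 7 of the 9 cluster regions, but its only peaks were in WT libraries. Centromeric regions 1 to 4 had log2 fold changes of -0.06, 0.01, -0.01 and -0.15, and telomeric regions 1 to 4 had 0.02, -0.31, -0.03 and -0.01, none of them at an unadjusted p under 0.05 (edgeR). In each landscape 3 of 4 values were under 0, where 49.9% of all regions were, with medians of -0.03 and -0.02. These counts moved between 1 and 4 in both landscapes when 1 library was left out, so no direction can be given. Telomeric regions 3 and 4, with the highest CPM of the window when width is not taken into account, bounded the change most tightly, with 95% intervals of -0.23 to 0.16 and -0.20 to 0.19.

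In the far centromeric landscape, region 2, the strongest there, had 76.8, 59.9, 71.7 and 63.8 CPM in WT and 73.599, 81.2, 59.7 and 60.3 CPM in Sd/Sd. Its neighbours were weaker, with 36.5, 31.5, 30.3 and 30.7 CPM in WT and 25.8, 31.4, 35.0 and 31.6 CPM in Sd/Sd at region 1. Region 3 had 24.1, 27.2, 17.7 and 22.8 CPM in WT and 20.3, 24.6, 27.7 and 18.7 CPM in Sd/Sd. At all 3 the genotypes overlapped, with means of 68.1 and 68.7, 32.2 and 30.9, and 22.9 and 22.8 CPM. In the far telomeric landscape, region 3 had 87.5, 81.8, 89.8 and 85.2 CPM in WT and 89.7, 81.5, 92.9 and 71.3 CPM in Sd/Sd. Region 4 beside it had 82.6, 88.4, 82.8 and 84.3 CPM in WT and 88.3, 79.0, 89.9 and 78.2 CPM in Sd/Sd. Both pairs of groups overlapped, and the Sd/Sd libraries spread wider than the WT ones (SD 9.65 against 3.41 CPM at region 3, 6.11 against 2.70 at region 4).

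Telomeric region 2 stood alone in the emptiest stretch of its side and was the least even member. It had 21.7, 24.8, 11.8 and 7.91 CPM in WT and 15.6, 15.5, 12.1 and 10.3 CPM in Sd/Sd. WT replicates 1 and 2 were the highest of all 8 libraries and WT replicate 4 the lowest, so the spread was wider within WT. A peak was called there in WT replicates 1 and 2 and in no other library. The counted regions are the authors' merged peaks, so this region may be among them only through the 2 libraries where it was highest. Its spread in WT and its fold change may depend on that, which was not tested. Its within-genotype variance was 7.81 times that of counting error, higher than that of 99.1% of all regions, and its coefficient of variation was 48.3% in WT and 19.6% in Sd/Sd. The log2 fold change of -0.31 (95% interval -0.76 to 0.14, edgeR adjusted p = 0.895) ranged from -0.55 to -0.06 with 1 library left out.

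Centromeric region 4 (chr2:74416319-74417443), the landscape region nearest to Hoxd13, had 35.1, 34.8, 42.8 and 35.1 CPM in WT and 36.7, 41.4, 30.5 and 25.1 CPM in Sd/Sd. Telomeric region 1 (chr2:74663745-74664491), the nearest to Hoxd1, had 21.2, 25.8, 24.4 and 21.1 CPM in WT and 28.6, 21.4, 26.2 and 17.2 CPM in Sd/Sd. The genotypes overlapped at both, and at telomeric region 1 the Sd/Sd libraries reached beyond WT on either side. Sd/Sd replicate 4, the deepest library, was the lowest in both.

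Summed over its 9 regions, the cluster held 199, 207, 203 and 165 CPM in WT and 196, 154, 163 and 144 CPM in Sd/Sd. WT replicate 4 lay among the Sd/Sd libraries and Sd/Sd replicate 1 near the other WT libraries, so the groups overlapped. The means were 193 ± 19.2 and 164 ± 22.5 CPM (SD, n = 4 each), a log2 ratio of -0.23. For the centromeric landscape the sums were 160 ± 9.31 and 156 ± 17.7 CPM (log2 ratio -0.04), and for the telomeric landscape 210 ± 9.30 and 204 ± 21.6 CPM (log2 ratio -0.04). The cluster's share of the window's counts, which does not depend on scaling between libraries, was 34.1%, 35.6%, 35.3% and 32.0% in WT and 34.1%, 29.0%, 30.4% and 31.6% in Sd/Sd. These ranges overlapped as well. On the Hoxd13 side the Sd/Sd mean was 110 ± 13.1 against 132 ± 13.8 CPM in WT, and on the Hoxd1 side 54.6 ± 9.79 against 61.8 ± 5.67 CPM. Sums over chosen regions were not tested.

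**Figure D5:**
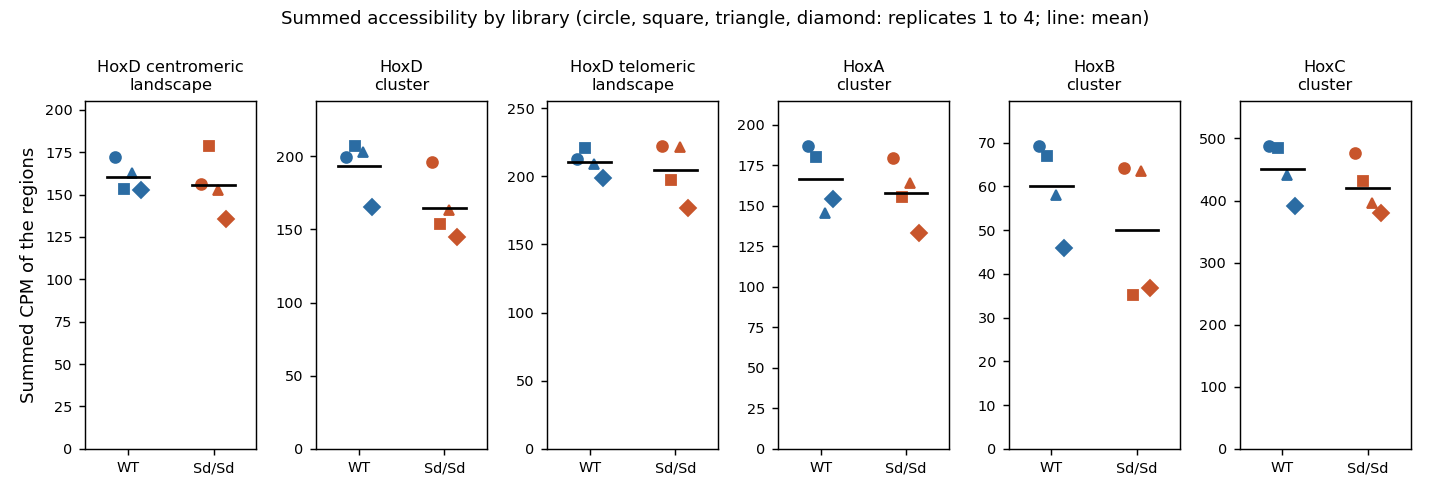
Summed CPM (y axis, linear from 0, scaled per panel) over the regions of the HoxD cluster, its landscapes and the other Hox clusters, for each WT and Sd/Sd library. In each panel the genotypes overlap, and the diamond of Sd/Sd replicate 4 is the lowest Sd/Sd library in each panel but that of HoxB.

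Set beside the other Hox clusters, HoxD had 8.18 regions per 100 kb, near the 8.57 of HoxC and above the 6.67 of HoxA and the 1.58 of HoxB. HoxA had 8 regions in 120 kb, HoxB 3 in 190 kb and HoxC 12 in 140 kb, in windows placed from background knowledge of mm9. Their median levels were 31.2, 19.5 and 36.2 CPM per kb of region against 25.8 in HoxD. The median fitted log2 fold changes were -0.08 in HoxA, -0.27 in HoxB and -0.07 in HoxC, beside -0.19 in HoxD. In HoxA, HoxB and HoxC, 6 of 8, 2 of 3 and 9 of 12 regions were under 0, against 49.9% of all regions. There were 0 adjusted calls in each (edgeR). At an unadjusted p under 0.05 there were 0 of 8 regions in HoxA, 1 of 3 in HoxB and 2 of 12 in HoxC, all lower in Sd/Sd, beside 2 of 9 in HoxD. Over all regions 6.06% had such a p in either direction and 3.09% with Sd/Sd lower. The clusters are small sets, and their regions come from the same 8 libraries and are not independent. The direction of HoxA's median flipped with 1 library left out (-0.17 to 0.06). WT replicate 4 had the lowest sum of the WT libraries in HoxD, HoxB and HoxC, and Sd/Sd replicate 4 the lowest sum of all 8 libraries in HoxD, HoxA and HoxC. Sd/Sd replicate 1 had the highest Sd/Sd sum in all 4 clusters, at 196, 179, 64.2 and 476 CPM in HoxD, HoxA, HoxB and HoxC. The part of these library levels in the difference between genotypes was not tested.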

How the data were processed

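Per the labels' protocols, tailbuds were dissected at the terminal somite and frozen, and a Tn5 enzyme made in the laboratory was used. The submitters' processing notes name mm9, BWA 0.7.15-r1140, MACS2 2.1.1.20160309 and bedtools 2.26.0, among others, with settings not given in the sources used here. Per the files, the authors deposited whole-number counts, not normalized, over 1 set of regions on 19 autosomes shared by all 8 libraries. The authors also deposited broad peaks per library, each carrying its score, fold enrichment (ratio) and −log10 p and q values. Whether a count is a read or a fragment is not stated.

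CPM here are counts over the library's total. Groups come from the labels. Counts of all 26620 regions were fitted with edgeR 4.0.16 in R 4.3.3 (quasi-likelihood F test, robust, TMM factors 0.9887 to 1.006, genotype as the only term, two-sided, Benjamini-Hochberg over all regions), and the low-count filter removed 0 regions. The fit was tested on simulated data. Intervals cover counting error and spread between libraries, with the spread of each region drawn toward that of all regions. For the most uneven regions they can be narrower than the region's own spread would give. Alternatives were DESeq2 1.42.0, limma 3.58.1 (voom, quality weights), no TMM, upper quartile scaling, no robust variance, a mean count of at least 50, other window or cluster bounds, other summaries, stricter peaks, the replicate block, and each library left out. Counts and medians per landscape and cluster with a library left out were added after seeing the data. By the naming rule every cluster region is named, in full for the 5 of highest CPM and the 5 of highest CPM per kb, with the 4 highest per landscape and those of unadjusted p under 0.05 or largest fitted change. Values per library of cluster region 2 were added after they were seen. The members and lists were chosen with earlier results of these data known.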

Additional observations from a re-analysis of the deposited data

Results flagged for a closer look

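Among 44 sets of 4 same-genotype libraries, 3 had a single library set apart, where about 1 set in 20 would do so by chance. Centromeric region 4 had 42.8 CPM in WT replicate 3, while the remaining WT values were 34.8 to 35.1 CPM. Cluster region 1, at the position of Hoxd13, had 23.9 CPM in Sd/Sd replicate 1, while its remaining Sd/Sd values were 14.2 to 15.4 CPM. In the same library cluster region 5 had 19.2 CPM, under the 24.7 to 25.8 CPM of the remaining Sd/Sd values.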

How the results depend on the processing

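The count of adjusted calls in the window stayed at 0 under each of 16 alternatives. The count of 2 regions at an unadjusted p under 0.05 was 1 with DESeq2 and 1 with upper quartile scaling, and with 1 library left out its lowest value was 0, when that was Sd/Sd replicate 3, and its highest 3, when it was WT replicate 4. It was 1 without WT replicate 1, 2 or 3 or Sd/Sd replicate 2. With the replicate number as a block it remained 2. Same-numbered libraries correlated at 0.0037, 0.0082, -0.0011 and 0.092 in their deviations from the group means, so the number was not taken to pair them. The log2 ratio of summed CPM ran from -0.33 to -0.18 in the cluster, from -0.11 to 0.02 in the centromeric and from -0.08 to 0.02 in the telomeric landscape with 1 library left out. The ratio of cluster to landscapes per kb was 0.658 with summed CPM over summed length, which weights wide regions more, and 0.736 to 0.766 with 1 library left out. The difference in peak number ran from -1.17 to 0.833. A fit without the low-count filter was not run apart, since the filter removed 0 regions. At 22 to 327 counts per region and library, the 95% intervals reached past 1.5-fold at 5 of 9 cluster regions. Of all 26620 regions, 19641 had an interval within 1.5-fold.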
